A study of Mus musculus with 5 samples.

Results

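The genes described here are 9 genes of lymphatic vessels and of the chemokine receptor CCR7, picked by symbol from the 23284 genes of the deposited expression table, low values included. They are the lymphatic identity genes Prox1, Lyve1, Pdpn, Reln, Itga9 and Foxc2, the CCR7 ligands Ccl21a and Ccl19, and the receptor gene Ccr7. Their RNA was sequenced from whole mouse melanomas, giving 2 B16F1-CXCL5 libraries and 3 B16F1 libraries. B16F1 is a murine melanoma line of C57BL/6 origin, and B16F1-CXCL5 cells are the same line made to overexpress CXCL5, a neutrophil-attracting ligand of the chemokine receptor CXCR2. The mice of both groups were C57BL/6 J, received no drug and carried the cells in flank skin, and the tumors were taken at 250 to 350 mm³. The labels do not say how CXCL5 was introduced, if B16F1-CXCL5 is 1 clone, or whether each library came from its own mouse. P-values therefore measure the spread between these libraries, and CXCL5 and a possible clone effect cannot be told apart.

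Lymphatic capillaries take up fluid, antigen and leukocytes from skin and carry them to the draining lymph node. Their endothelial cells are set up by the transcription factor PROX1, carry LYVE1 and podoplanin on their surface, and secrete CCL21. Dendritic cells and some T cells that express CCR7 follow CCL21 into these vessels, and CCL19, made mainly by stromal and dendritic cells of lymphoid tissue, is the other ligand of the same receptor. Several of these genes are not exclusive to lymphatic vessels. LYVE1 is also made by some tissue macrophages, and podoplanin by fibroblasts, keratinocytes and some tumor cells.

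Values are FPKM, fragments per kilobase of transcript scaled to the size of the library, so levels can be set side by side between genes. From the spacing of low values, an estimated 27800000 and 28200000 fragments lay behind the B16F1-CXCL5 libraries and 27000000 to 28300000 behind the B16F1 libraries. Cxcl5 had 83.7 and 85.4 FPKM in B16F1-CXCL5 libraries, against 1.86, 3.62 and 1.01 FPKM in B16F1 libraries, the direction the labels give. The melanocytic genes Mlana, Pmel, Tyr, Dct, Tyrp1, Mitf, Sox10 and Slc45a2 summed to between 9403 and 12801 FPKM in every library. B16F1 library 3 stood apart in adjoining tissue, with summed keratinocyte markers of 1474 FPKM, against 542 to 813 FPKM in the other 4 libraries. Its skeletal muscle markers summed to 1899 FPKM, and those of B16F1-CXCL5 library 2 to 1448 FPKM, against 578 to 627 FPKM in the other 3. Summed neutrophil markers were 775 and 844 FPKM in B16F1-CXCL5 libraries, against 27.5 to 66.3 FPKM in B16F1 libraries.

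All 9 genes had a value above 0 in every library. Over the 5 libraries Pdpn had the highest mean level, 27.0 FPKM, at the 85.0th percentile of all genes in the table. Itga9 followed at 9.996 FPKM, then Lyve1 at 5.99, Ccl19 at 5.70, Ccr7 at 1.23, Prox1 at 0.872, Ccl21a at 0.670, Foxc2 at 0.337 and Reln at 0.0846 FPKM. The range of Pdpn lay wholly above that of Itga9, that of Ccl19 above that of Ccr7, and that of Foxc2 above that of Reln. The other neighbors in this order had overlapping ranges. The place of Ccl21a is uncertain. Its fragments may be divided with Gm1987, a gene described below, which had a mean of 1.85 FPKM. Lyve1 and Ccl19 could not be ranked, as Lyve1 was the higher of the pair in 3 of 5 libraries.

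**Figure D1:**
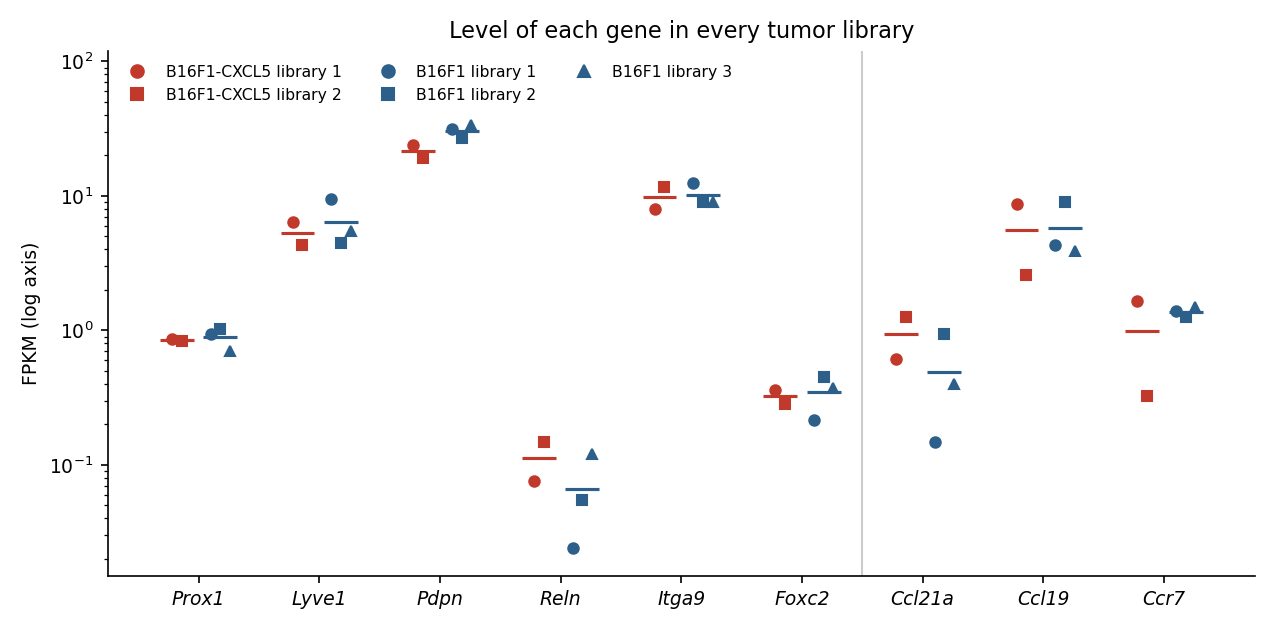
FPKM of each gene on a log axis, with 1 point per library, B16F1-CXCL5 libraries in red to the left and B16F1 libraries in blue to the right, and a bar at each group mean; the grey line parts the vessel genes from the CCR7 axis. The groups overlap for 8 of the 9 genes. Pdpn is the exception, with both B16F1-CXCL5 libraries under all B16F1 libraries, as for 15.6% of the genes tested.

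Of the 9 genes, 0 passed the test between the groups. The test was limma on log2(FPKM + 1) with a Benjamini-Hochberg adjusted p under 0.05 over all genes. It called 0.136% of the 12533 genes with at least 1 FPKM in at least 2 libraries, and 0.128% of 18751 genes when no such filter was set. Of the 12533, 0.128% were called higher and 0.00798% lower. Pdpn, Itga9, Lyve1, Ccl19 and Ccr7 passed that filter, and Prox1, Ccl21a, Foxc2 and Reln fell under it, so the last 4 were fitted among all genes above 0. Adjusted p-values lay between 0.433 for Pdpn and 0.979 for Itga9. At an unadjusted p under 0.05, 1 of the 9 genes counted, Pdpn, beside 8.97% of the genes over the filter. The log2 fold change, B16F1-CXCL5 minus B16F1, was negative for 7 and positive for 2 of the 9 genes, beside 53.4% negative and 46.6% positive over all genes tested. The 5 genes over the filter were all negative, with a median of -0.20, against -0.01 over all genes tested. Of these 5, only Pdpn kept its sign in every alternative processing described below. The 4 genes under the filter come from the other fit, where adding 1 FPKM draws low genes towards 0, and with them the median of the 9 was -0.04. With 2 libraries against 3, an exact two-sided permutation test cannot give a p below 0.1. In whole tumors, fewer cells of a type and less RNA per cell cannot be told apart.

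**Figure D2:**
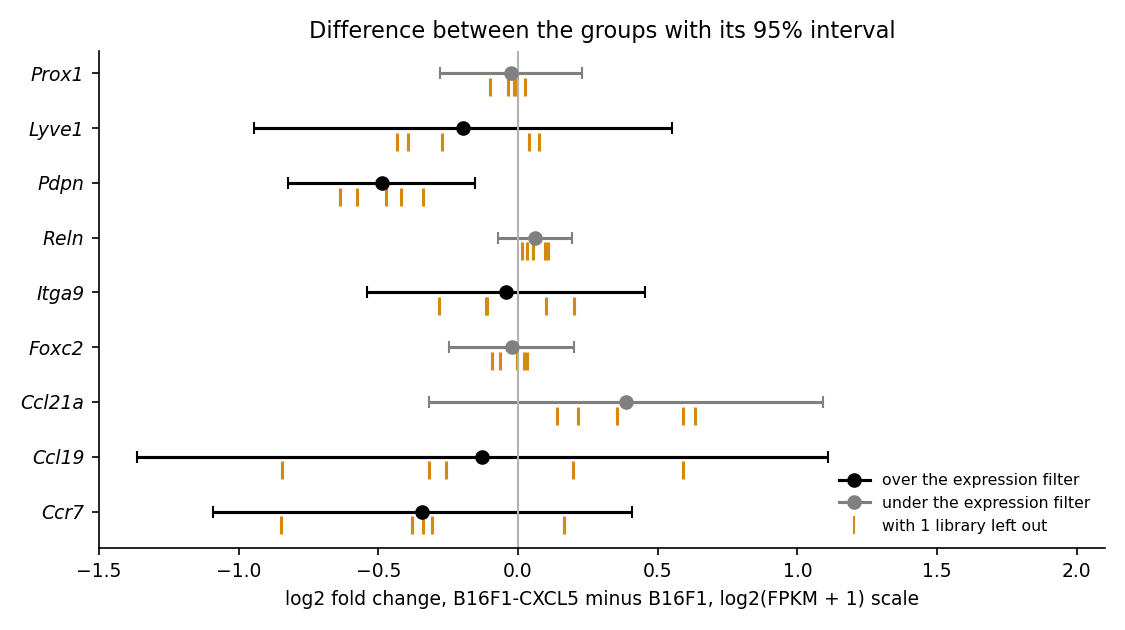
Log2 fold change of each gene with its 95% interval from limma on the log2(FPKM + 1) scale, black for genes over the expression filter and grey for genes under it; orange ticks give the value with each library left out in turn. The interval of Pdpn lies below 0, the intervals of the other 8 genes span 0, and 0 of the 9 genes passed the adjusted threshold.

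Prox1, the transcription factor that gives lymphatic endothelium its identity, lies at chr1:190118035-190170714 on the minus strand (GRCm38, GENCODE M21, as for all positions given here) and was at a low and even level. It had 0.865 and 0.833 FPKM in B16F1-CXCL5 libraries, against 0.942, 1.02 and 0.697 FPKM in B16F1 libraries. Both B16F1-CXCL5 libraries lay inside the B16F1 range, and Prox1 varied the least of the 9 genes over the 5 libraries, with a coefficient of variation of 14.0%. The mean was 0.849 ± 0.0223 FPKM (SD, n = 2) in B16F1-CXCL5 tumors and 0.887 ± 0.170 FPKM (SD, n = 3) in B16F1 tumors. The difference on the log2 scale was -0.03, with a 95% interval from -0.28 to 0.23 (limma adjusted p = 0.972). It turned to 0.026 without B16F1 library 2. On the FPKM + 1 scale the interval runs from 0.823 to 1.17-fold. Relative to Cdh5, the VE-cadherin of all endothelium, Prox1 stood at ratios of 0.0837 and 0.0961 in the B16F1-CXCL5 libraries, against 0.136, 0.138 and 0.0781 in the B16F1 libraries. The lowest ratio was that of B16F1 library 3, so the groups overlapped (exact two-sided permutation p = 0.4).

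Foxc2 and Reln mark a later step of vessel building. FOXC2 is a forkhead transcription factor needed for lymphatic valves, and reelin is a secreted matrix glycoprotein of collecting lymphatics that is best known from the developing brain. Foxc2 lies at chr8:121116171-121118895 on the plus strand and Reln at chr5:21884454-22344702 on the minus strand. Foxc2 had 0.362 and 0.283 FPKM in B16F1-CXCL5 libraries, against 0.216, 0.448 and 0.374 FPKM in B16F1 libraries. Reln had 0.0764 and 0.147 FPKM in B16F1-CXCL5 libraries, against 0.0243, 0.0546 and 0.121 FPKM in B16F1 libraries. For both genes the groups overlapped. Foxc2 had a log2 fold change of -0.02 with a 95% interval from -0.25 to 0.20, and it turned to 0.032 without B16F1 library 2 and to 0.021 without B16F1-CXCL5 library 2. Reln had a log2 fold change of 0.06 with a 95% interval from -0.07 to 0.19, or 0.37 with a pseudocount of 0.1, and its mean in B16F1-CXCL5 libraries was 1.68 times that in B16F1 libraries. The adjusted p was 0.972 for Foxc2 and 0.856 for Reln (limma among all genes above 0). Depth limits both: 14.7 to 31.2 fragments per library were estimated for Foxc2 and 7.5 to 47.6 for Reln. The highest Reln values were those of B16F1-CXCL5 library 2 and B16F1 library 3, the same pair that had the most skeletal muscle RNA, whose part in the Reln values was not tested.

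Lyve1 encodes the hyaluronan receptor of lymphatic capillaries and lies at chr7:110850607-110863239 on the minus strand. It had 6.35 and 4.30 FPKM in B16F1-CXCL5 libraries, against 9.41, 4.45 and 5.45 FPKM in B16F1 libraries. B16F1 library 1 was the highest and the other 4 libraries lay between 4.30 and 6.35 FPKM. The mean was 5.32 ± 1.45 FPKM (SD, n = 2) in B16F1-CXCL5 tumors and 6.44 ± 2.62 FPKM (SD, n = 3) in B16F1 tumors. The log2 fold change was -0.20, with a 95% interval from -0.95 to 0.55 and a limma adjusted p of 0.908. The direction turned without B16F1 library 1, to 0.07, and without B16F1-CXCL5 library 2, to 0.04. Lyve1 stood at 4.35 to 9.99 times the level of Prox1, and this ratio overlapped between the groups.

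Itga9 encodes the integrin alpha 9 subunit, which pairs with integrin beta 1 and is needed for lymphatic valves, and lies at chr9:118606690-118901003 on the plus strand. It had 8.03 and 11.6 FPKM in B16F1-CXCL5 libraries, against 12.4, 8.98 and 8.94 FPKM in B16F1 libraries. Each group held both high and low libraries. The mean was 9.83 ± 2.55 FPKM (SD, n = 2) in B16F1-CXCL5 tumors and 10.1 ± 1.99 FPKM (SD, n = 3) in B16F1 tumors, and the log2 fold change was -0.04 with a 95% interval from -0.54 to 0.46 (limma adjusted p = 0.979). It turned to 0.20 without B16F1-CXCL5 library 1, to 0.10 without B16F1 library 1 and to 0.0028 at equal sums per library. Among the 122 other listed genes over the filter, the one whose pattern over the 5 libraries lay nearest to Itga9 was Pmel, the premelanosome protein. Their centred log2(FPKM + 1) values differed by a root mean square of 0.07, while Itga9 itself varied by 0.22. The next was Cacnb3, a calcium channel subunit from the dendritic cell list, at 0.14. Of the 8 melanocytic markers, Mlana, Mitf and Sox10 were highest in B16F1 library 2, and the others, like Itga9, in B16F1 library 1. The part of tumor cells in the Itga9 values was not tested.

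Pdpn was the gene of the 9 with the clearest separation between the groups, without passing the test. It encodes podoplanin, a mucin-like surface protein that binds the platelet receptor CLEC-2, at chr4:143267431-143299564 on the minus strand. Pdpn had 23.9 and 19.3 FPKM in B16F1-CXCL5 libraries, against 31.2, 26.9 and 33.7 FPKM in B16F1 libraries. Both B16F1-CXCL5 libraries lay under all B16F1 libraries, as for 15.6% of the genes tested. The mean was 21.6 ± 3.29 FPKM (SD, n = 2) in B16F1-CXCL5 tumors and 30.6 ± 3.44 FPKM (SD, n = 3) in B16F1 tumors, or 0.704 of the B16F1 level. On the log2 scale the difference was -0.49 (SE 0.13, 95% interval -0.82 to -0.15), with an unadjusted limma p of 0.0121 and a limma adjusted p of 0.433. An unadjusted p under 0.05 in the lower direction was reached by 5.39% of the genes tested. Exact permutation gave a two-sided p of 0.1, the lowest it can give with these libraries. The difference was smallest without B16F1-CXCL5 library 2, at -0.34, and largest without B16F1-CXCL5 library 1, at -0.64 on the log2 scale.

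Fibroblasts and keratinocytes can also make podoplanin. All 13 fibroblast markers passed the filter, and their summed level was 1747 and 1959 FPKM in B16F1-CXCL5 libraries, against 1251, 1027 and 2062 FPKM in B16F1 libraries. All 12 keratinocyte markers passed as well, and summed to 617 and 813 FPKM in B16F1-CXCL5 libraries, against 542, 579 and 1474 FPKM in B16F1 libraries. B16F1-CXCL5 library 2 had the lowest Pdpn and the second highest level of both marker lists, while B16F1 library 3 had the highest Pdpn and the highest level of both. Among the listed genes, Tcf7 and Fbln1 were nearest in pattern to Pdpn. Tcf7 is a transcription factor of T cells and other lineages. Fbln1 is the matrix protein fibulin 1 and 1 of the 13 fibroblast markers. Their root mean square differences were 0.17 and 0.19 beside a variation of 0.28 in Pdpn itself, so neither was close. Fbln1 had 39.7 ± 4.88 FPKM (SD, n = 2) in B16F1-CXCL5 tumors and 52.3 ± 6.32 FPKM (SD, n = 3) in B16F1 tumors, and it did not pass either (limma adjusted p = 0.487). It was the only fibroblast marker whose B16F1-CXCL5 libraries lay under all B16F1 libraries, as did 15.6% of the genes tested. Of the 13 markers, 9 had a positive log2 fold change, beside 46.6% of the genes tested, and the median was 0.20. The part of each cell type in the Pdpn values was not tested.

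**Figure D3:**
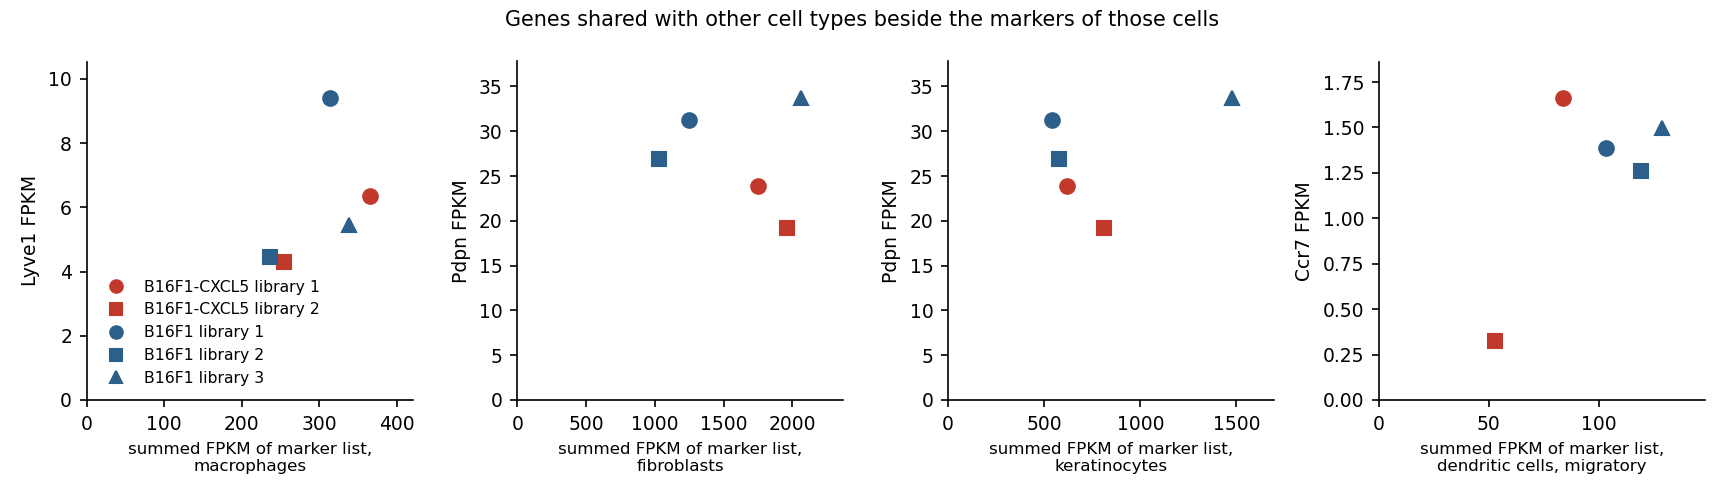
FPKM of Lyve1, Pdpn and Ccr7 against the summed FPKM of markers of macrophages, fibroblasts, keratinocytes and migratory dendritic cells, with 1 point per library, B16F1-CXCL5 in red and B16F1 in blue. The Pdpn points of the B16F1-CXCL5 libraries lie under those of the B16F1 libraries at marker sums inside the B16F1 range. The lowest Ccr7 value, 0.323 FPKM, is that of the library with the lowest dendritic cell sum, 52.7 FPKM. The gap between the groups in the dendritic cell sum lies almost wholly in Fscn1, which is not restricted to dendritic cells.

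Macrophages are another known source of Lyve1 RNA. Of the 13 macrophage markers 12 passed the filter and 0 were called, and their sum was 366 and 254 FPKM in B16F1-CXCL5 libraries, against 313, 236 and 339 FPKM in B16F1 libraries. The genes nearest in pattern to Lyve1 were F13a1, the A chain of coagulation factor XIII, and Folr2, a folate receptor, both of tissue macrophages, with root mean square differences of 0.10 and 0.19, while Lyve1 itself varied by 0.35. F13a1 had 20.0 and 13.7 FPKM in B16F1-CXCL5 libraries, against 26.8, 11.9 and 17.6 FPKM in B16F1 libraries, so it shared with Lyve1 the high value of B16F1 library 1. Of the 12 macrophage markers over the filter, 8 had a positive log2 fold change, beside 46.6% of the genes tested, and the median was 0.07. F13a1 and Folr2 were among the 4 with a negative one. The part of macrophages in the Lyve1 values was not tested.

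Ccl21a is 1 of several nearly identical copies of the CCL21 gene on mouse chromosome 4. The gene lies at chr4:42772860-42773993 on the minus strand and Ccl21b at chr4:42255767-42256432 on the plus strand. Their coding sequences of 402 bases differ at 2 positions, T84A and C194T, counted from 1 at the first base of the start codon with the base of Ccl21a first. The copies Gm10591 and Gm13304 have the same coding sequence as Ccl21b. Coding bases 71 to 210, read 5′ to 3′ from the GENCODE transcripts, are shown because they hold both differences, which are in capitals.
Ccl21a: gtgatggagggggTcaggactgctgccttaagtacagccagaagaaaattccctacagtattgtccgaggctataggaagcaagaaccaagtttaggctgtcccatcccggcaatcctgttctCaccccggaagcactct
Ccl21b: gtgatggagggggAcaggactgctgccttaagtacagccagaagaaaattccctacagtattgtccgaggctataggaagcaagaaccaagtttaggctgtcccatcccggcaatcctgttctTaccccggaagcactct
A fragment that lies within the coding sequence and covers neither position cannot be told between Ccl21a and Ccl21b. The authors' program divides such fragments by a model. Bases outside the coding sequence were not compared. In mice, the copy represented by Ccl21a is known from lymphoid organs and the copies of the Ccl21b kind from lymphatic vessels of other tissues.

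The deposited values were uneven over these copies. Ccl21a had 0.608 and 1.26 FPKM in B16F1-CXCL5 libraries, against 0.147, 0.936 and 0.398 FPKM in B16F1 libraries. The groups overlapped, and the lowest value corresponds to an estimated 2.7 fragments. The log2 fold change was 0.39 with a 95% interval from -0.32 to 1.09 (limma adjusted p = 0.808 among all genes above 0), and 0.96 with a pseudocount of 0.1. Ccl21b and Ccl21c were listed at 0 in all 5 libraries, which in such a table can be a failed estimate. Gm1987 is paired by its RefSeq accession with a gene that GENCODE names Ccl21a on the unplaced scaffold JH584294.1, while its place in the authors' annotation is not given in the sources used here. Gm1987 had 2.15 and 1.26 FPKM in B16F1-CXCL5 libraries, against 1.04, 0.932 and 3.88 FPKM in B16F1 libraries. Gm1987 was named after its values were seen, and its sequence was not compared with that of Ccl21a. Ccl21a made up between 9.29% and 50.1% of the sum of both.

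With Ccl21a and Gm1987 summed, a step chosen after seeing the data, the levels were 2.76 and 2.52 FPKM in B16F1-CXCL5 libraries, against 1.19, 1.87 and 4.28 FPKM in B16F1 libraries. B16F1 library 3 then had the highest and B16F1 library 1 the lowest value, with both B16F1-CXCL5 libraries between them. The log2 fold change of the sum was 0.18 with a 95% interval from -0.73 to 1.09 (limma adjusted p = 0.938).

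**Figure D4:**
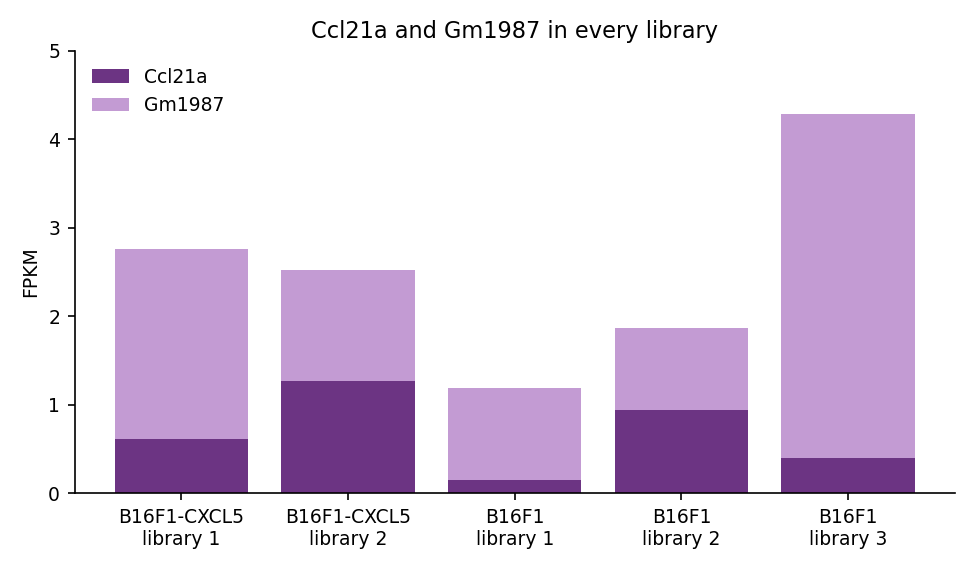
Stacked bars of the FPKM of Ccl21a (dark) and of Gm1987 (light), paired by accession with a Ccl21a copy, in every library, starting at 0. The split between them differs from library to library, with Ccl21a at 50.1% of the sum in B16F1 library 2 and 9.29% in B16F1 library 3.

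Ccl19, the other ligand of CCR7, was at a level like that of Lyve1 and varied widely within both groups. It lies beside Ccl21a at chr4:42754525-42756577 on the minus strand. Ccl19 had 8.63 and 2.57 FPKM in B16F1-CXCL5 libraries, against 4.34, 9.03 and 3.91 FPKM in B16F1 libraries. The highest values were those of B16F1-CXCL5 library 1 and B16F1 library 2, and the lowest was that of B16F1-CXCL5 library 2. The mean was 5.60 ± 4.29 FPKM (SD, n = 2) in B16F1-CXCL5 tumors and 5.76 ± 2.84 FPKM (SD, n = 3) in B16F1 tumors. The log2 fold change was -0.13, with a 95% interval from -1.36 to 1.11 and a limma adjusted p of 0.975. Without B16F1-CXCL5 library 2 the log2 fold change was 0.59, without B16F1 library 2 it was 0.20, and without B16F1-CXCL5 library 1 it was -0.84, so these data do not settle a direction. The ratio of Ccl19 to the sum of Ccl21a and Gm1987 was 3.13 and 1.02 in the B16F1-CXCL5 libraries, against 3.65, 4.84 and 0.912 in the B16F1 libraries. GENCODE places another Ccl19 gene on an unplaced scaffold, so the Ccl19 value carries the same uncertainty about copies. The genes nearest in pattern to Ccl19 were Cd83, a surface protein of mature dendritic cells, and Ccl5, a chemokine of T cells and macrophages, but at root mean square differences of 0.33 and 0.39 beside a variation of 0.58 in Ccl19 itself neither was close.

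Ccr7, the receptor of both ligands on dendritic cells and on naive and central memory T cells, was even in 4 libraries and low in 1. The gene lies at chr11:99144196-99155077 on the minus strand. Ccr7 had 1.66 and 0.323 FPKM in B16F1-CXCL5 libraries, against 1.39, 1.26 and 1.495 FPKM in B16F1 libraries. B16F1-CXCL5 library 1 was the highest of the 5 and B16F1-CXCL5 library 2 the lowest, so the mean of that group describes neither of them. The mean was 0.993 ± 0.948 FPKM (SD, n = 2) in B16F1-CXCL5 tumors and 1.38 ± 0.118 FPKM (SD, n = 3) in B16F1 tumors, and the log2 fold change was -0.34 with a 95% interval from -1.09 to 0.41 (limma adjusted p = 0.804). Without B16F1-CXCL5 library 2 it was 0.16, and without B16F1-CXCL5 library 1 it was -0.85 (limma adjusted p = 0.801). With a pseudocount of 0.1 it was -0.78. The low value corresponds to an estimated 16.2 fragments, against 61.7 to 82.3 in the other 4 libraries. The genes nearest in pattern to Ccr7 were Ackr3, a scavenging receptor of CXCL12, and Gja4, the gap junction protein connexin 37. Their root mean square differences were 0.19 and 0.20, while Ccr7 itself varied by 0.36.

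Of 13 markers of migratory dendritic cells, 11 passed the filter and 0 were called, 5 with a positive and 6 with a negative log2 fold change. Their sum was 83.5 and 52.7 FPKM in B16F1-CXCL5 libraries, against 103, 119 and 129 FPKM in B16F1 libraries. The gap between the groups in this sum lay almost wholly in Fscn1, the highest marker of the list by its mean. Fscn1, an actin-bundling protein that is not restricted to dendritic cells, had 34.6 and 18.7 FPKM in B16F1-CXCL5 libraries, against 61.3, 78.7 and 87.0 FPKM in B16F1 libraries (log2 fold change -1.52, limma adjusted p = 0.260). Ccl17, whose product attracts CCR4-bearing T cells, had 0.481 and 0.364 FPKM in B16F1-CXCL5 libraries, against 2.04, 1.48 and 1.79 FPKM in B16F1 libraries (log2 fold change -0.96, limma adjusted p = 0.181). For both, the B16F1-CXCL5 libraries lay under the B16F1 libraries, as for 15.6% of the genes tested. Itgax, the CD11c integrin subunit of dendritic cells and other myeloid cells, went the other way without passing, with 1.14 and 1.30 FPKM in B16F1-CXCL5 libraries, against 0.389, 0.550 and 0.605 FPKM in B16F1 libraries (log2 fold change 0.55, limma adjusted p = 0.428). Ccr7 was low in B16F1-CXCL5 library 2 only. Of 12 T cell markers, Tcf7 passed the filter and 11 did not, with sums of 10.4 and 8.28 FPKM in B16F1-CXCL5 libraries and 8.69 to 11.8 FPKM in B16F1 libraries. Tcf7, found in other lineages too, was the highest of the 12 in every library and weighed most in these sums. Its log2 fold change was -0.36 (limma adjusted p = 0.552), while with no filter the median of the list was 0.081. Of the 11 under the filter, only Il7r had a negative log2 fold change, and 0 passed the test. Both B16F1-CXCL5 libraries lay under all B16F1 libraries for Tcf7 and above them for Cd8a, Cd8b1, Cd5 and Lef1. Of 6 B cell markers 0 passed the filter, and their sums lay between 0.976 and 2.17 FPKM over the 5 libraries. The part of these cells in the Ccr7 values was not tested.

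The wider set of genes for lymphatic growth and vessel structure held 26 symbols, of which 25 were found and 16 passed the filter. Of these, 0 passed the test. The log2 fold change was positive in 11 and negative in 5, beside 46.6% positive over all genes tested. The median of the set was 0.12, against -0.01 over all genes tested. That median was 0.048 with no filter. Leaving out B16F1-CXCL5 library 1 gave 0.042, leaving out B16F1-CXCL5 library 2 gave 0.19, leaving out B16F1 library 2 gave 0.075, and leaving out B16F1 library 3 gave 0.22, as did the replicate number as a block. Flt4, the receptor VEGFR3 of lymphatic endothelium, had 2.19 and 2.30 FPKM in B16F1-CXCL5 libraries, against 1.84, 1.46 and 1.96 FPKM in B16F1 libraries. The B16F1-CXCL5 libraries lay above the B16F1 libraries, as for 10.8% of all genes tested, with a log2 fold change of 0.24 and a limma adjusted p of 0.687. Its ligand Vegfc had 12.0 ± 1.45 FPKM (SD, n = 2) in B16F1-CXCL5 tumors and 11.05 ± 0.792 FPKM (SD, n = 3) in B16F1 tumors (limma adjusted p = 0.850). The other ligand, Vegfd, listed under its older name Figf, had 3.13 ± 0.766 FPKM (SD, n = 2) in B16F1-CXCL5 tumors and 2.69 ± 1.13 FPKM (SD, n = 3) in B16F1 tumors (limma adjusted p = 0.901).

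Cd9, a tetraspanin of many cell types, had the highest level of the set, 133 ± 1.38 FPKM (SD, n = 2) in B16F1-CXCL5 tumors and 131 ± 34.9 FPKM (SD, n = 3) in B16F1 tumors (limma adjusted p = 0.976). The smallest p-values belonged to Angpt2 and Fgl2. Angpt2, a ligand of the TIE2 receptor in blood and lymphatic vessels, had 19.3 ± 0.588 FPKM (SD, n = 2) in B16F1-CXCL5 tumors and 15.3 ± 1.53 FPKM (SD, n = 3) in B16F1 tumors (limma adjusted p = 0.463). Fgl2, a fibrinogen-like protein of endothelium and leukocytes, had 12.1 and 9.25 FPKM in B16F1-CXCL5 libraries, against 4.22, 4.75 and 8.53 FPKM in B16F1 libraries (limma adjusted p = 0.495). Mmrn1, a multimerin of lymphatic endothelium and platelets, fell under the filter with 0.579 and 0.484 FPKM in B16F1-CXCL5 libraries, against 0.309, 0.381 and 0.882 FPKM in B16F1 libraries. Of 15 markers of blood endothelium, 14 passed the filter and 0 were called. A positive log2 fold change was seen in 12, beside 46.6% over all genes tested, and the median was 0.19, against -0.01. The markers summed to 190 and 176 FPKM in B16F1-CXCL5 libraries, against 163, 167 and 178 FPKM in B16F1 libraries. These sums overlapped between the groups (exact two-sided permutation p = 0.3).

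**Figure D5:**
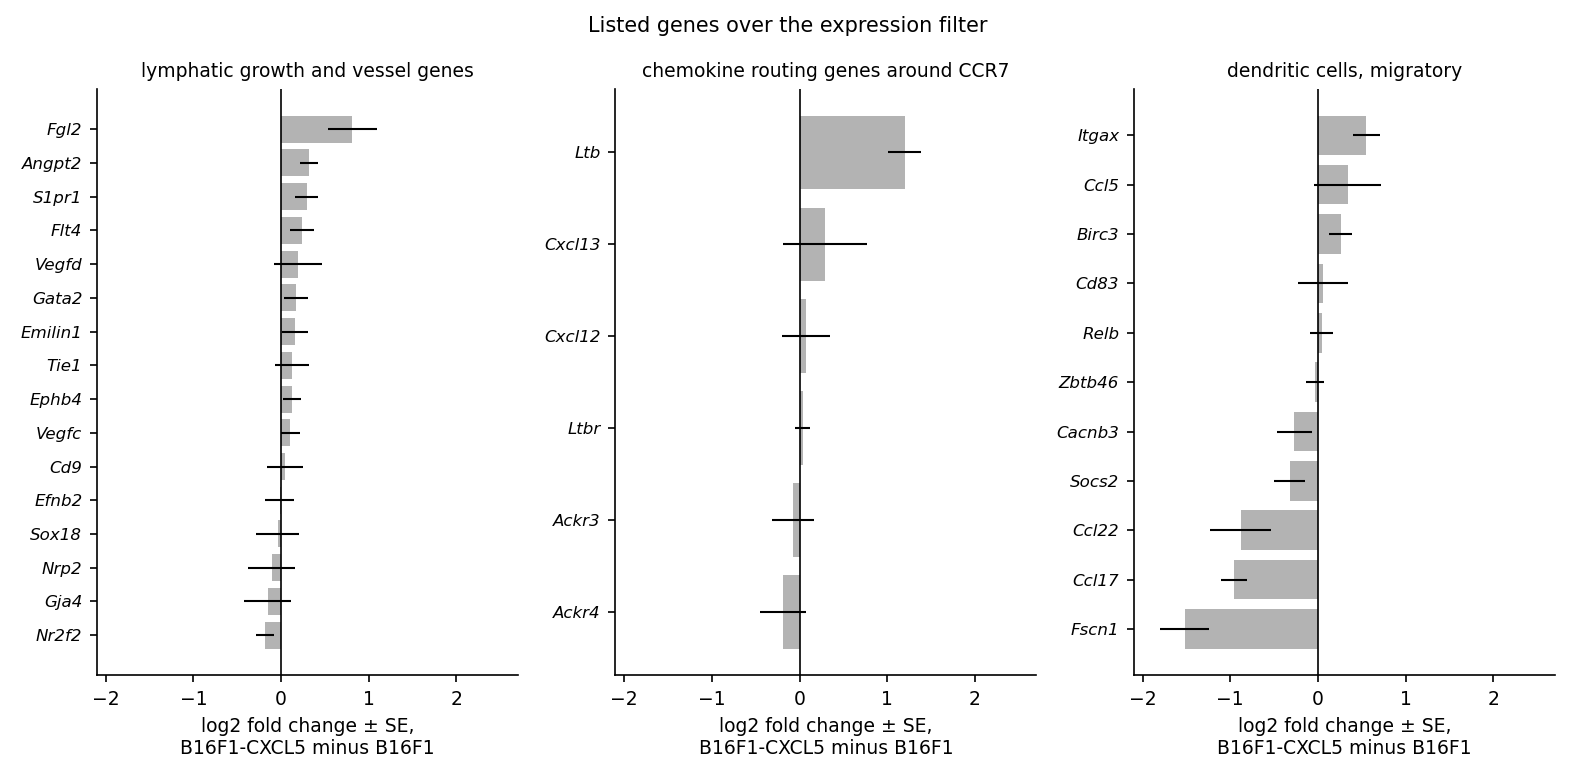
Log2 fold change with its SE from limma for the genes over the expression filter of 3 lists: lymphatic growth and vessel genes, chemokine routing genes around CCR7, and markers of migratory dendritic cells; bars to the right are higher in B16F1-CXCL5. The longest bars are Ltb at 1.20 and Fscn1 at -1.52, and 0 of the genes shown passed the adjusted threshold.

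Of the 16 genes around the CCR7 ligands and the homing of leukocytes that are reported here, 6 passed the filter and 0 of these passed the test. Their median log2 fold change was 0.05, with 4 positive and 2 negative. It was 0.023 with no filter and 0.10 at equal sums per library. Leaving out B16F1-CXCL5 library 2 gave 0.15, leaving out B16F1 library 2 gave 0.090, leaving out B16F1 library 1 gave 0.017, and leaving out B16F1 library 3 gave 0.0086, as did the block. The smallest p-value was that of Ltb. Ltb, a lymphotoxin subunit that drives lymphoid tissue formation, had 1.88 and 2.67 FPKM in B16F1-CXCL5 libraries, against 0.243, 0.421 and 0.601 FPKM in B16F1 libraries. Both B16F1-CXCL5 libraries lay above the B16F1 libraries, as for 10.8% of all genes tested. Ltb did not pass (log2 fold change 1.20, limma adjusted p = 0.174). Its receptor Ltbr had 54.1 ± 1.42 FPKM (SD, n = 2) in B16F1-CXCL5 tumors and 52.8 ± 3.93 FPKM (SD, n = 3) in B16F1 tumors. Ackr4, listed under its older name Ccrl1, is the scavenging receptor that removes CCL19 and CCL21, and had 1.17 and 2.14 FPKM in B16F1-CXCL5 libraries, against 1.49, 1.69 and 2.92 FPKM in B16F1 libraries (limma adjusted p = 0.901). Cxcl12, the stromal ligand of CXCR4 and ACKR3, had 20.3 and 11.1 FPKM in B16F1-CXCL5 libraries, against 11.4, 14.5 and 17.5 FPKM in B16F1 libraries. Glycam1 and Chst4, genes of the high endothelial venules of lymph nodes, were listed at 0 in all 5 libraries.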

How the data were processed

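The submitters' processing notes name Cufflinks 2.2.1, TopHat2 2.0.10, SAMtools 0.1.1.9, Bowtie 1.0.0 and the mouse build GRCm38 (mm10). Strand setting, scaling and annotation: not given in the sources used here. Values deposited by the authors are FPKM, 1 column per library, matched by title. They are not counts, so log2(FPKM + 1) was tested with limma 3.58.1 (R 4.3.3, intensity trend, Benjamini-Hochberg) on genes reaching 1 FPKM in 2 or more of 5 libraries; 4 of the 9 genes fell under this filter and were fitted among all genes above 0. In simulated data the fit called 70% of 200 genes changed by 1 on the log2 scale, 87.5% at 2 and 96.5% at 4. It also called 18, 9 and 13 unchanged genes. The 4 genes under the filter were not part of that simulation. Changes smaller than 1 on the log2 scale, the size of those seen for the 9 genes, were not simulated. Differences are B16F1-CXCL5 minus B16F1; this scale understates changes of low genes. Exact permutation tests compared absolute differences of means. Fragment numbers are estimates: steps in low FPKM of 3059 genes with 1 transcript of 800 to 6000 nt, with 200 nt assumed per fragment, and 54.3% to 58.5% of low values within 0.15 of a whole number. At most 0.120% of values were identical between libraries. The members and lists were chosen with earlier results of these data known. Of 170 symbols, 169 were found, 5 by an older name; Clca3a1 was not analysed here. A further gene of the chemokine routing list is not reported here and is left out of its counts and medians. The rule for naming took all 9 genes, from each list the genes called, up to 2 of smallest p and up to 2 of highest level, and the 2 genes nearest in pattern; those of marker lists are given as sums. Flt4, Cdh5, Gm1987, Vegfc, Vegfd, Mmrn1, Ackr4, Itgax, Glycam1 and Chst4 were added after their values were seen. Likeness of pattern is the root mean square difference of centred log2(FPKM + 1) over 5 libraries, a description. Alternatives were pseudocounts of 0.1 and 0.5, no filter, a mean FPKM of at least 3, no trend, library weights, equal sums, median centring, a replicate block and leaving out each library.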

Additional observations from a re-analysis of the deposited data

How the results depend on the processing

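Under every alternative run, 0 of the 9 genes passed. Pdpn kept its negative and Reln and Ccl21a their positive direction in all alternatives that gave a value. Itga9 turned to 0.0028 on the log2 scale at equal sums per library. With 1 library left out, log2 fold changes ranged from -0.64 to -0.34 for Pdpn, -0.43 to 0.073 for Lyve1, -0.28 to 0.20 for Itga9, -0.84 to 0.59 for Ccl19, -0.85 to 0.16 for Ccr7, -0.10 to 0.026 for Prox1, -0.094 to 0.032 for Foxc2, 0.01 to 0.11 for Reln and 0.14 to 0.63 for Ccl21a. Further shifts of over 1.5 times included, with a pseudocount of 0.1, -0.042 for Prox1 and -0.047 for Foxc2, with library weights, -0.23 for Ccl19, and with the replicate block, -0.32 for Ccl19, -0.12 for Itga9, -0.10 for Prox1 and 0.096 for Reln. A group left with 1 library is assumed to vary like the other. The 16 genes called higher over all genes became 7 with a pseudocount of 0.1, 6 where the mean FPKM reached 3, 38 without the trend, 29 with library weights and 0 to 31 with 1 library left out; the 1 called lower became 2 with library weights and 2 to 4 with 1 library left out. The replicate block, in which B16F1 library 3 has no partner, gave 42 higher and 4 lower and a chemokine routing median of 0.0086. Same-numbered libraries did not deviate together (correlations of -0.03 and -0.02), no label pairs them, and the numbers were not taken as a pairing. The chemokine routing set had 0 calls throughout, and its median was 0.10 at equal sums per library and ranged from 0.0086 to 0.15 with 1 library left out. The cause of these shifts was not tested. The 4 genes under the filter gave no value at a mean FPKM of at least 3, nor did Ccr7. Depth limits Reln, Foxc2 and Ccl21a most.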
